A study of Drosophila virilis and Drosophila willistoni and Drosophila miranda with 119 samples.

Results

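The transcriptomes of Drosophila virilis and Drosophila mojavensis embryos were compared at stage 2, when the embryo holds only mRNA loaded by the mother, and at stage 5, when the zygotic genome has been switched on. The comparison rests on 24 of the 119 single embryos in the series, which covers 14 Drosophila species. It comprised 7 D. virilis and 6 D. mojavensis embryos at stage 2, and 6 D. virilis and 5 D. mojavensis embryos at stage 5. The labels give no strain, genotype, age of the mothers or treatment; the flies of both species were kept uncrowded on molasses food. Eggs were staged by imaging, RNA was extracted from each embryo with TRIzol, and polyA RNA was made into Illumina TruSeq libraries.

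Both species at stage 2 and D. mojavensis at stage 5 are labelled as raw data mixed with D. melanogaster material, and D. virilis at stage 5 is not. At stage 5 the mixing and the species therefore cannot be told apart. The same holds for the stage change, because the mixing differs between the stages in D. virilis only. Some D. virilis stage 5 data also came from earlier work, per the series' design text, so that more than 6 embryos may stand behind that column. The authors deposited 1 FPKM value (a fragment count divided by transcript length and by library size) per gene, species and stage, with the embryos of a group combined. The differences below therefore have no replicate check, no standard deviation and no test, and the depth behind each value is unknown.

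D. virilis and D. mojavensis belong to the virilis and repleta groups, and are the only members of the subgenus Drosophila among the species sampled. In the fly egg, nurse cells fill the oocyte with mRNA for metabolism, cell division and axis formation. During the maternal-to-zygotic transition a part of this mRNA is destroyed, by factors from the mother and later from the zygote, while gap, pair-rule and dorsoventral genes are transcribed for the first time. A difference in mRNA amount at stage 2 reflects what the mother supplied, whereas one at stage 5 mixes retained maternal mRNA with new transcripts. A difference between listed values can also come from the gene model or the ortholog match, and which applies was not tested. In whole embryos, fewer cells of a type and less RNA per cell cannot be told apart.

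The members are the 3540 genes that reached at least 1 FPKM in any of the 4 columns, out of 3764 for which all 14 species have an ortholog. Values were taken as log2(FPKM + 1) and each column was centred on its median. Every difference is D. virilis minus D. mojavensis on this centred log2 scale, and a gene was named as differing when the difference reached 2, which is 4-fold. The column medians lay close together, at 29.4 FPKM in D. virilis and 29.0 in D. mojavensis at stage 2, and at 33.7 and 33.0 at stage 5. The stage labels were checked against known markers. The maternal mRNAs bcd, osk, nos, gnu, aret and twe ranged from 47.2 to 465 FPKM at stage 2 and from 0.740 to 64.6 at stage 5. The zygotic mRNAs Kr, ftz, prd, twi, sna, tll and sog were at 0.197 FPKM or less at stage 2 and between 28.9 and 345 at stage 5, in both species.

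The maternal transcriptomes were the more alike of the 2 stages. At stage 2 the median absolute difference was 0.35, 83.5% of the genes lay within 1, and the levels had a Spearman correlation of 0.860 across genes, which are not independent of one another. At stage 5 the median absolute difference was 0.78, 59.9% of the genes lay within 1, and the correlation was 0.778. Of the 3540 genes, 103 (2.91%) were higher in D. virilis and 105 (2.97%) higher in D. mojavensis by at least 2 at stage 2. At stage 5 these counts were 285 (8.05%) and 240 (6.78%). The threshold cuts a continuous range: at stage 2 the gene just inside was CG3078, at 2.00, and that just outside was CG4741, at 1.998.

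**Figure D1:**
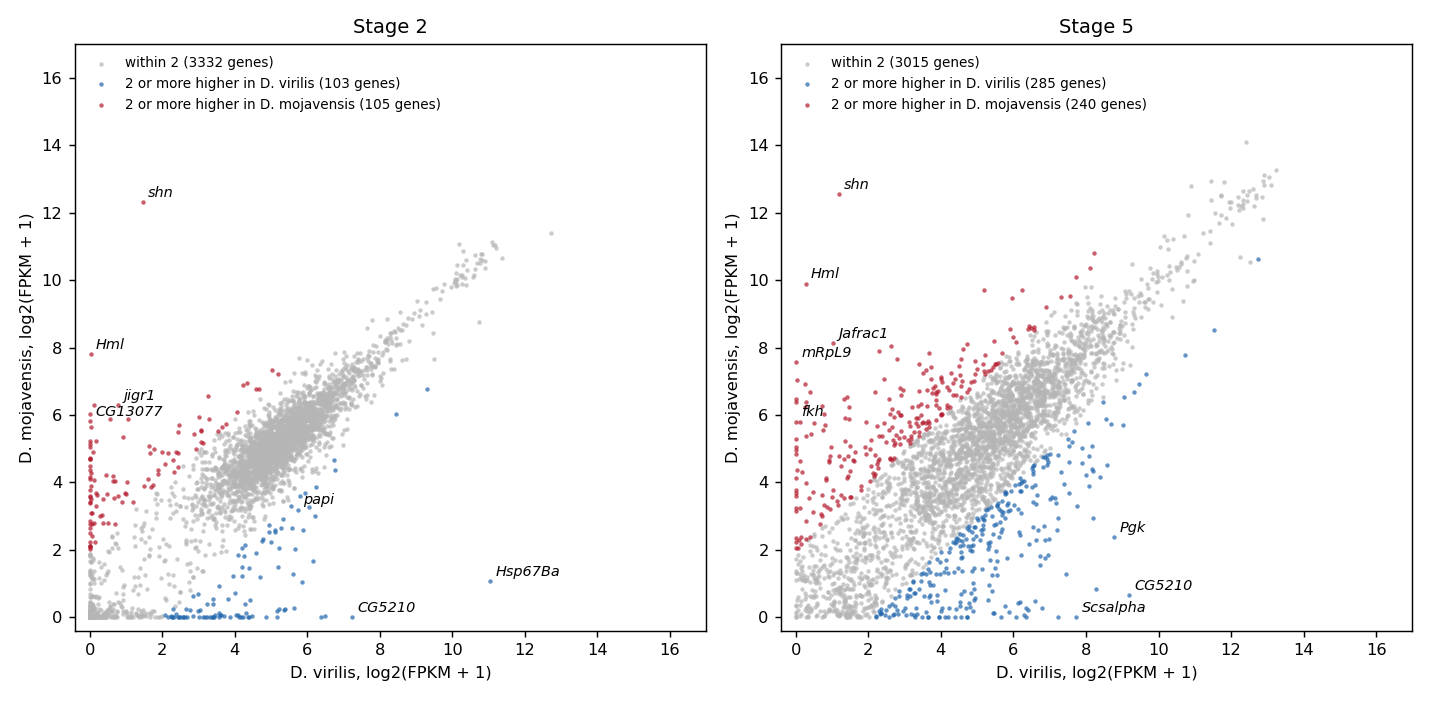
Levels in D. virilis (x axis) and D. mojavensis (y axis), both as log2(FPKM + 1), for 3540 genes at stage 2 and at stage 5. Each point is 1 gene, coloured where the centred difference is 2 or more; 103 and 105 genes are coloured at stage 2, and 285 and 240 at stage 5, where the cloud is wider.

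The lower value of the genes past 2 was often very low. At stage 2 the lower species was below 1 FPKM in 62.1% of the genes higher in D. virilis and in 60.0% of those higher in D. mojavensis. At stage 5 this share was 33.0% and 25.0%, so that most stage 5 differences were between 2 levels of 1 FPKM or more. Some lower values are exactly 0, and others are positive values of at most 1e-06 FPKM, which stood in genes that every cell uses, such as pds5. A gene listed at or near 0 may therefore be a failed estimate, and it is described here only as listed so. Among the genes past 2 at stage 2, 6 were listed at 0 and 11 near 0 in D. mojavensis, and 7 and 10 in D. virilis. With all genes at or below 1e-06 FPKM in any column left out, a setting chosen after seeing the data, 87 and 85 genes were past 2 at stage 2, and 262 and 199 at stage 5.

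The largest stage 2 difference towards D. virilis was that of a small heat shock gene. Hsp67Ba (GJ11478 in D. virilis, GI12246 in D. mojavensis) stood at 2104 FPKM in D. virilis and 1.09 in D. mojavensis at stage 2, a difference of 9.95. At stage 5 it was at 114 and 5.58 FPKM. The 12 other species ranged from 0.150 to 1008 FPKM at stage 2, so that D. virilis lay above all of them and D. mojavensis within their range.

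CG5210 (GJ20997 in D. virilis, moj9 in D. mojavensis) showed the reverse situation, with D. mojavensis as the species apart. Its D. mojavensis identifier does not have the GI form of that of Hsp67Ba, and the ortholog match was not tested. CG5210 was at 149 FPKM in D. virilis and 0.00335 in D. mojavensis at stage 2, and at 580 and 0.584 at stage 5. All other species were at 9.36 FPKM or more at stage 2 and at 44.1 or more at stage 5. The same held for pds5, which encodes a regulator of the cohesin ring that joins sister chromatids. It was at 83.0 FPKM in D. virilis, above the 31.4 to 56.0 of the other species, at stage 2 and at 149 at stage 5, but was listed near 0 in D. mojavensis at both stages.

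CG42322, in contrast, was high in D. virilis alone. Its level was 88.5 FPKM at stage 2 and 310 at stage 5 in D. virilis, and 0.0340 and 0.777 in D. mojavensis, and no other species exceeded 0.0513 FPKM at stage 2 or 1.50 at stage 5. The remaining genes named at stage 2 were at 34.9 to 49.2 FPKM in D. virilis and at 0.200 or less in D. mojavensis. They were Syx13, a SNARE protein of endosomal fusion, CG17292, CG11360, CG10005, Pgant35A, an enzyme of O-linked glycosylation, and CrebA, a transcription factor for secretory pathway genes.

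By stage 5 the differences of Pgant35A and CrebA were below 2. Pgant35A went from 0.180 to 25.1 FPKM in D. mojavensis, against 36.1 and 50.1 in D. virilis. CrebA went from 0.149 to 4.39 FPKM in D. mojavensis while it went from 35.1 to 18.4 in D. virilis. Among genes listed at 0 in D. mojavensis at stage 2, the largest D. virilis levels were those of CG6499 at 17.6, CG3253 at 5.41, CG5282 at 4.92, T3dh at 4.55 and yellow-e3 at 3.87 FPKM.

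In the other direction, the extreme gene was shn, which encodes the zinc finger protein Schnurri that acts downstream of Dpp signalling. It stood at 5081 FPKM in D. mojavensis and 1.75 in D. virilis at stage 2, a difference of -10.87. That D. mojavensis value was the highest of all 3764 genes in its column. At stage 5 shn stood at 5962 and 1.27 FPKM. No other species went above 14.8 FPKM at stage 2 or 40.1 at stage 5, and D. virilis lay below all of them, at 3.49 and 8.68 or more. The identifiers are GJ17686 in D. virilis and GI19779 in D. mojavensis. The gene models and the ortholog match behind these values were not tested.

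Hml, known in D. melanogaster as hemolectin, a large secreted protein of blood cells, was at 222 FPKM in D. mojavensis at stage 2 and at 946 at stage 5. D. virilis was at 0.0181 and 0.203 FPKM, and no other species exceeded 0.913 at either stage. A level of this size in an egg thus appeared in D. mojavensis alone among the 14 species. CG31115 (77.6 FPKM), CG9837 (64.8), CG13077 (55.1) and CG15347 (24.7) had the same profile at stage 2. In D. virilis the first of these was at 0.0936 FPKM, CG13077 was at 0.00400, and CG9837 and CG15347 were listed at 0.

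Other genes on the D. mojavensis side were low in D. virilis and at 5 FPKM or more in all 12 other species, namely jigr1, CG2846, CG14971, CG9240, Egm and CG32147. jigr1 was at 0.726 FPKM in D. virilis and 77.5 in D. mojavensis at stage 2, and at 9.99 to 407 in the others. By stage 5 the order had turned, with 193 FPKM in D. virilis and 77.5 in D. mojavensis. CG2846, CG33145 and CG14971 were at 36.3, 34.4 and 32.3 FPKM in D. mojavensis and listed near 0 in D. virilis at stage 2. rtv and CG9240 stood at 49.0 and 58.0 FPKM in D. mojavensis and at 0.0183 and 0.464 in D. virilis. Egm, CG32147 and CG3505, listed at 0 in D. virilis, were at 25.2, 19.6 and 11.0 FPKM in D. mojavensis.

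At stage 5 the genes with the largest differences towards D. virilis were CG5210, Scsalpha, CG42322, pds5, ImpE2 and Pgk. Scsalpha, the alpha subunit of succinyl-CoA synthetase in the citric acid cycle, was at 137 FPKM in D. virilis and 57.6 in D. mojavensis at stage 2. At stage 5 it was at 212 FPKM in D. virilis and listed near 0 in D. mojavensis, whereas the 11 other species lay between 3.01 and 517. Pgk, phosphoglycerate kinase of glycolysis, went from 95.4 to 4.18 FPKM in D. mojavensis and from 199 to 438 in D. virilis. The 11 other species had 8.05 to 423 FPKM of Pgk at stage 5, with a median of 35.1, so D. virilis also stood above their uncentred levels. On the centred scale both genes lay outside the range of the other species in D. mojavensis only.

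Several further genes were higher in D. virilis at stage 5 and low, or listed at or near 0, in D. mojavensis. ImpE2, an ecdysone-inducible gene, was at 109 FPKM against 0.208, and was at 0.00271 or less in both at stage 2. CG13868 reached 174 FPKM against 1.41 from a start below 1 in both species. CG1218, CG14997 and Ppt2, a palmitoyl-protein thioesterase, were at 77.1 to 83.9 FPKM in D. virilis. In D. mojavensis CG14997 was at 0.171 FPKM, Ppt2 at 0.0464 and CG1218 near 0. rho-4, a rhomboid protease, was at 25.1 FPKM in D. virilis and listed at 0 in D. mojavensis.

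On the D. mojavensis side at stage 5, shn and Hml were followed by mRpL9 and Jafrac1. Jafrac1, a peroxiredoxin, was similar at stage 2, with 747 FPKM in D. virilis and 872 in D. mojavensis. At stage 5 it was at 1.02 FPKM in D. virilis and 279 in D. mojavensis. In the other species it was at 473 to 923 FPKM at stage 2 and at 4.00 to 330 at stage 5, and its change of -8.72 in D. virilis lay beyond their -6.49 to -0.85. The mitochondrial ribosomal protein gene mRpL9 was at 188 FPKM in D. mojavensis and at 4.86e-06 in D. virilis.

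tub, which encodes the adaptor Tube of the Toll pathway, was at 102 FPKM in D. mojavensis and 0.302 in D. virilis at stage 5, after 29.2 and 4.18 at stage 2. The 11 other species held 2.95 to 66.7 FPKM at stage 5, so that both species lay outside their range, on opposite sides. PEK, the kinase that phosphorylates eIF2alpha in endoplasmic reticulum stress, was at 82.5 FPKM against 0.219. CG11103 and Egm were at 87.8 and 82.7 FPKM in D. mojavensis and near 0 in D. virilis. Of the genes listed at 0 in D. virilis at stage 5, Cyp49a1, a cytochrome P450, was at 8.46 and Pgd, of the pentose phosphate pathway, at 4.10 FPKM in D. mojavensis.

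Differences at stage 2 carried over to stage 5 in part. Of the 103 genes higher in D. virilis at stage 2, 83 had the same sign at stage 5 and 49 were past 2 again, which is 47.6% of the stage 2 list and 17.2% of the stage 5 list. Of the 105 genes higher in D. mojavensis, 74 kept their sign and 44 were past 2 again, which is 41.9% and 18.3%. The latter count was 28 when genes at or below 1e-06 FPKM were left out. Of all 3540 genes, 8.05% were higher in D. virilis and 6.78% higher in D. mojavensis by 2 or more at stage 5. At stage 2 these shares were 2.91% and 2.97%, so the overlap shares were larger in both directions. The overlap was led by CG5210, CG42322, pds5, CG11360 and Syx13 on the D. virilis side and by shn, Hml, CG9837, CG13077 and CG2846 on the other.

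Most genes past 2 at stage 5 were not past 2 at stage 2. Of the 236 genes higher in D. virilis at stage 5 but not at stage 2, 189 lay within 1 at stage 2, and of the 196 such genes of D. mojavensis 154 did. Of all 3540 genes 83.5% lay within 1 at stage 2, so lying that close was not particular to these genes. Another 7 genes were past 2 at both stages in opposite directions. papi, bam, Rpp30 and CG8306 were higher in D. virilis at stage 2 and in D. mojavensis at stage 5, and jbug, AnxB11 and CG7341 the other way round. Of these CG8306 and CG7341 fall outside the rule for named genes and were chosen after their values were seen.

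**Figure D2:**
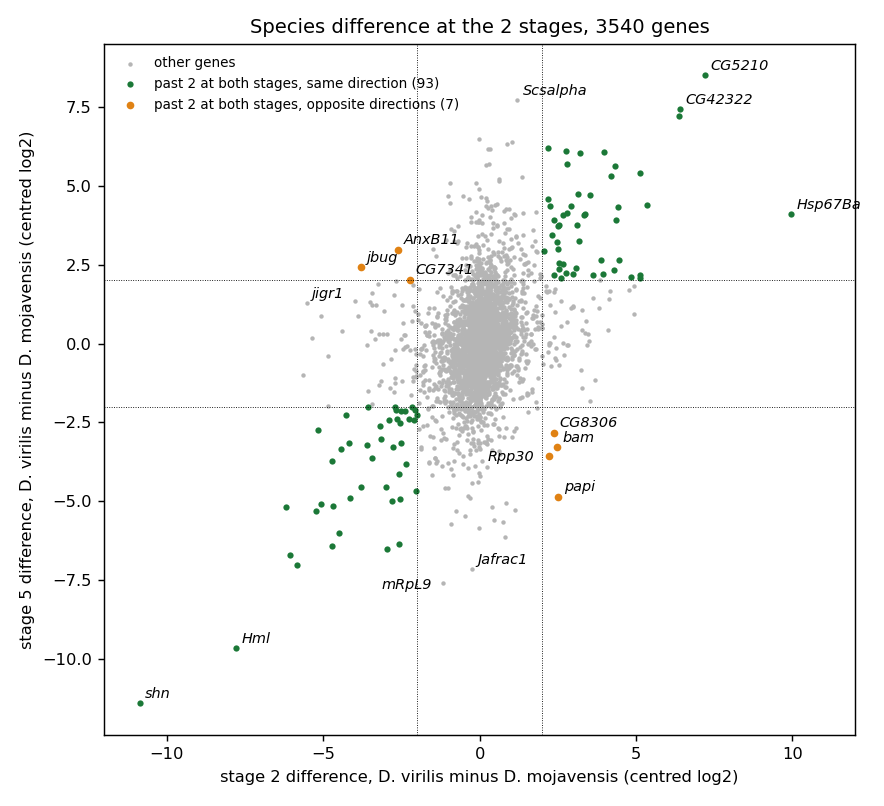
Difference D. virilis minus D. mojavensis at stage 2 (x axis) against stage 5 (y axis), centred log2, 1 point per gene; dotted lines mark 2 and -2. The 93 green genes are past 2 in the same direction at both stages, the 7 orange ones in opposite directions, and most genes past 2 on the y axis are near 0 on the x axis.

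The stage change, stage 5 minus stage 2, was larger in D. virilis by at least 2 for 265 genes (7.49%) and larger in D. mojavensis for 232 (6.55%). These counts use the same 4 columns as the stage differences and are not separate support for them. D. virilis alone went from mixed to unmixed material between the stages, so mixing and species cannot be told apart here either. Changes in the same direction prevailed: 789 genes were higher at stage 5 by 1 or more in both species and 455 lower by 1 or more in both. Opposite changes of 1 or more were found for 107 genes, of which 62 went up in D. virilis and down in D. mojavensis, and 45 the reverse.

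Among genes with the larger change in D. virilis, the extremes had different origins. jigr1 gained 6.62 in D. virilis from a low start and changed by -0.18 in D. mojavensis, where it had been present from the outset. jbug, a filamin-type actin crosslinker, showed the same form: it went from 0.00744 to 72.0 FPKM in D. virilis and from 12.7 to 12.4 in D. mojavensis. In all 12 other species jbug was at 0.0453 FPKM or less at stage 2, and in the 11 with a stage 5 value it was at 24.9 or more, so that the early level set D. mojavensis apart. CG9240 went from 0.464 to 85.9 FPKM in D. virilis and from 58.0 to 75.1 in D. mojavensis, and Ect3 from 0.179 to 69.0 in D. virilis against 0.00189 to 0.353.

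For other genes in that direction the change in D. mojavensis was a loss. CG18190 went from 84.9 to 2.61 FPKM in D. mojavensis and stood at 44.0 and 124 in D. virilis. All 11 other species had changes between -5.40 and -1.80, so that D. virilis was the species apart. prel, a mitochondrial lipid transfer protein, went from 36.2 to 3.11 FPKM in D. mojavensis and from 0.124 to 6.67 in D. virilis. AnxB11, an annexin, went from 8.76 to 158 FPKM in D. virilis and from 57.3 to 18.9 in D. mojavensis.

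The largest change in favour of D. mojavensis was that of papi, a Tudor domain protein that works in piRNA biogenesis at mitochondria. It went from 52.2 to 0.689 FPKM in D. virilis and from 8.14 to 46.5 in D. mojavensis, which gives changes of -5.17 and 2.20. The other species had changes from -5.38 to 1.15, with a median of -2.13, so that D. mojavensis lay outside their range. CG7920 went from 95.3 to 0.707 FPKM in D. virilis and went from 41.9 to 64.1 in D. mojavensis, with the other species between -1.44 and 1.04.

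PHGPx, a glutathione peroxidase, and CG9399, PEK and mRpL9 had similar profiles. They were at 24.7 to 106 FPKM in D. virilis at stage 2 and at 3.86 or less at stage 5, while in D. mojavensis each was at 75.7 to 235 FPKM at stage 5. cN-IIIB, a cytosolic nucleotidase, went from 3.24 to 42.0 FPKM in D. mojavensis and from 6.69 to 0.331 in D. virilis. Its change was between 1.62 and 5.57 in all other species. Rpp30, a subunit of RNase P, went from 0.552 to 71.2 FPKM in D. mojavensis and was at 6.27 and 5.27 in D. virilis.

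The share of genes past 2 varied with what the gene did elsewhere in the genus. Genes were grouped by the median stage change of the 11 other species with both stages, a measure that the species difference does not use. At stage 5, 19.8% of the 283 genes with a median change of -2 or less elsewhere were past 2 in this pair, against 11.1% of the 387 genes with one of 2 or more. At stage 2 the order was not the same, with 6.36% and 7.49%. The 2 species moved alike on average in each group: the first group had median changes of -1.99 in D. virilis and -2.05 in D. mojavensis, and the second had 2.45 and 2.42. The level of a gene moved with these shares. Of genes with a median under 1 FPKM in the other species 20.0% were past 2 at stage 5, and of genes at 100 FPKM or more 9.89% were. The part of level in the first pattern was not tested.

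**Figure D3:**
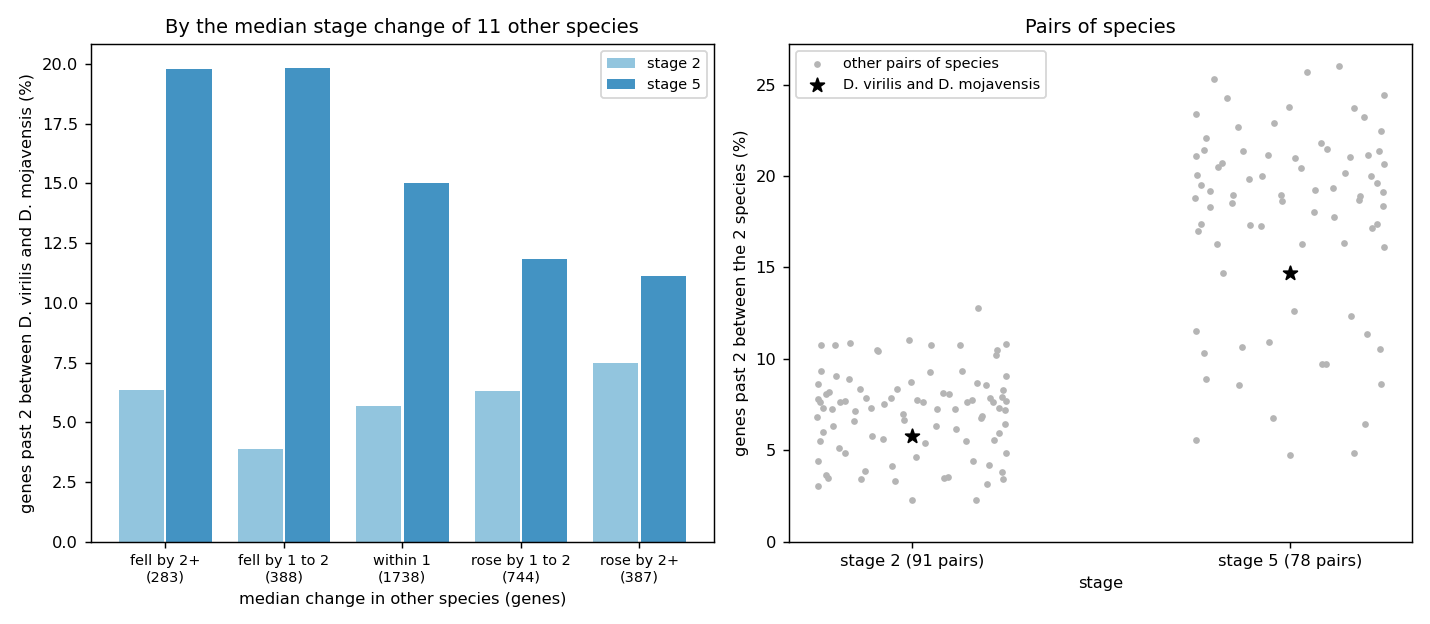
Left, percent of genes past 2 between D. virilis and D. mojavensis at each stage, in 5 groups by the median stage change of 11 other species (number of genes in brackets); the stage 5 bars go from 19.8% to 11.1% from left to right. Right, the same percent for every pair of species at each stage, with this pair as a star, at 5.78% at stage 2 and 14.7% at stage 5.

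Set among all pairs of species with the same processing and 3496 genes, this pair differed less than most. At stage 2, 5.78% of genes were past 2, which was the rank 27 from the smallest of 91 pairs, whose range was 2.29% to 12.8%. At stage 5 the share was 14.7%, rank 19 of 78, in a range of 4.75% to 26.0%. Against the species outside the pair, D. virilis gave 7.64% to 10.8% at stage 2 and 18.5% to 25.3% at stage 5, and D. mojavensis 7.15% to 10.8% and 18.3% to 24.4%. Each of the 2 was thus nearer to the other than to any further species at both stages. Pairs share species and ancestry, so these ranks are a description.

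The other species also show which of the 2 stood apart. Of the 285 genes higher in D. virilis at stage 5, 105 had D. mojavensis alone outside the range of the others, 70 had D. virilis alone, 34 had both and 76 neither. Of the 240 genes higher in D. mojavensis, 87 had D. virilis alone outside, 50 D. mojavensis alone, 26 both and 77 neither. In both directions at stage 5 the species alone outside was thus more often the lower one. Over all 3540 genes at stage 5, 15.4% had D. virilis alone outside, 14.5% D. mojavensis alone, 10.1% both and 60.0% neither. Genes picked for a large difference lie outside a range more readily. At stage 2 the split was 32 for D. virilis against 30 for D. mojavensis in the first direction, and 40 against 28 in the second. The lower species was thus not the more frequent one in the first direction. Over all genes at stage 2 the shares were 13.1% for D. virilis alone and 10.8% for D. mojavensis alone.

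A stricter count, added after the data were seen, took genes at 10 FPKM or more in 1 species and below 1 in all others. At stage 2 it found 7 genes in D. mojavensis, where the 12 further species had 0 to 6, and 2 in D. virilis. The 7 were Hml, CG31115, CG9837, CG13077, CG15347, jbug and GstT4, the last a glutathione transferase at 11.1 FPKM against 0.724 in D. virilis. The 2 in D. virilis were CG42322 and CG3921. At stage 5 Hml and CG4496 met the rule in D. mojavensis and CG2010 in D. virilis.

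The reverse rule, below 1 FPKM in 1 species and at 10 or more in all others, was met by 11 genes in D. mojavensis at stage 5. The 11 further species had 0 to 18, with a median of 3. The 11 genes were CG11811, CG10470, CG1218, CG8372, EloC, Vps24, Ppt2, CG5210, Cpsf100, pds5 and CG11077. Of these CG1218, EloC, Cpsf100 and pds5 were listed near 0 and may be failed estimates. EloC, the elongin C subunit, was near 0 in D. mojavensis, at 11.5 FPKM in D. virilis and up to 862 elsewhere. Cpsf100, a subunit of the mRNA cleavage and polyadenylation complex, was near 0 at both stages in D. mojavensis and at 19.5 and 49.6 FPKM in D. virilis.

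In D. virilis the reverse rule was met by 6 genes at stage 2, where the 12 further species had 0 to 28 with a median of 2, and by 5 at stage 5. At stage 2 they were prel, CG1444, Aats-phe, CG32147, CG14971 and ecd. Of these Aats-phe and CG14971 were listed near 0 and CG32147 at 0, and these may be failed estimates. Aats-phe, a phenylalanyl-tRNA synthetase, was near 0 and then at 2.76 FPKM in D. virilis, and at 16.9 and 31.8 in D. mojavensis. At stage 5 the 5 genes were CG7920, CG3165, PEK, CG12253 and cN-IIIB.

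**Figure D4:**
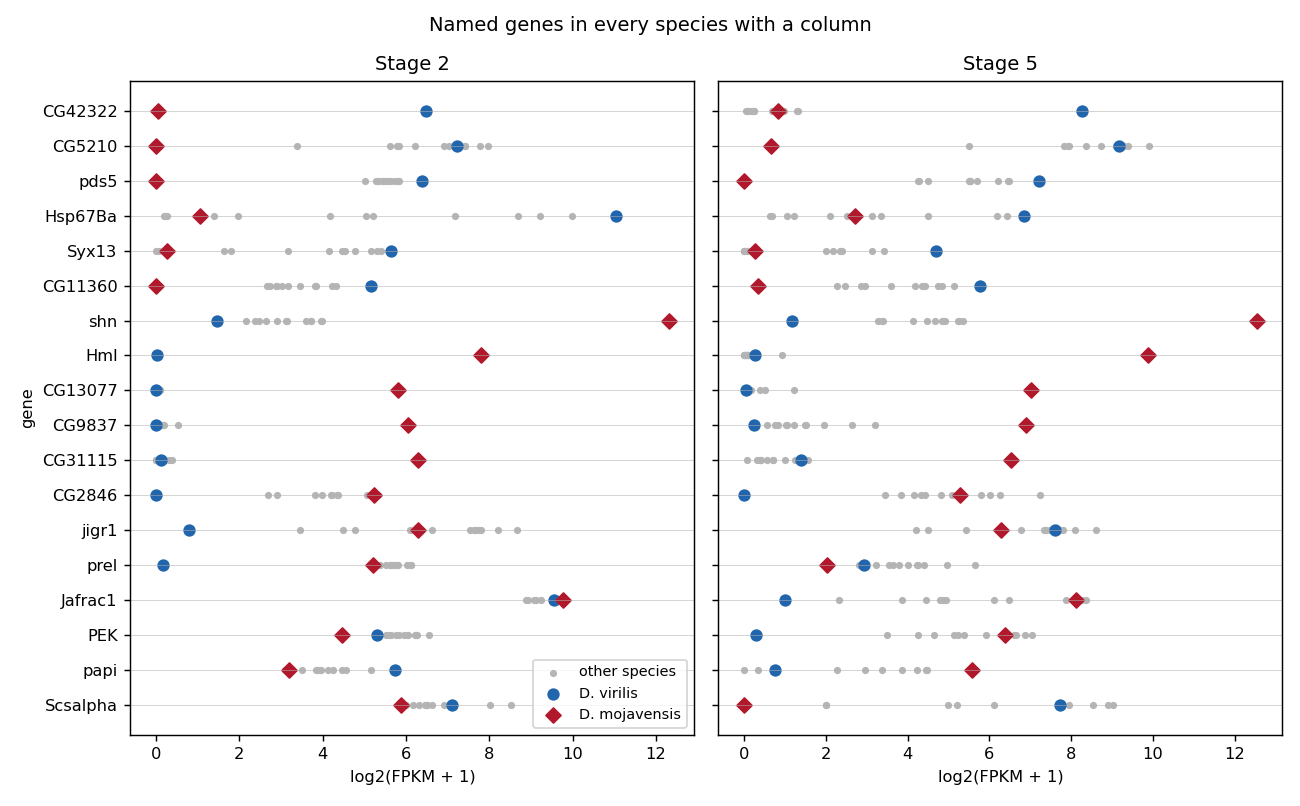
Levels of 18 named genes in every species with a column, as log2(FPKM + 1), at stage 2 and stage 5; blue circles are D. virilis, red diamonds D. mojavensis and grey points the other species. In Hml, CG13077 and CG9837 the red point stands alone at the right, in CG42322 the blue one does, and in CG5210 and pds5 the red point stands alone at the left.

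Detection at 1 FPKM or more gave a coarser view over all 3764 genes. At stage 2, 2963 genes were detected in both species, 111 in D. virilis only and 107 in D. mojavensis only, of which 30 and 39 were at 10 FPKM or more. At stage 5, 3122 were detected in both, 230 in D. virilis only and 129 in D. mojavensis only, of which 58 and 40 were at 10 FPKM or more. A gene below 1 FPKM at stage 2 and at 1 or more at stage 5 was counted as zygotic-only, which held for 376 genes in D. virilis and 315 in D. mojavensis, with 220 in common. A gene that went below 1 FPKM by stage 5 was counted as cleared, which held for 98 and 134 genes, with 35 in common.

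Gene lists were read in the wider table, in which 7424 genes were compared. There 7.52% of genes were past 2 in either direction at stage 2, 18.1% at stage 5 and 16.2% in the stage change. Differences in that table are centred on its own medians and deviate slightly from those above. The patterning genes of the embryo had few members past 2. At stage 5 none of the 11 pair-rule genes and none of the 15 segment polarity genes was past 2, and 3 of 34 zygotic dorsoventral genes were. The median stage 5 difference was -0.62 for pair-rule and -0.41 for segment polarity genes, on the D. mojavensis side. The median absolute difference of the pair-rule genes, 0.82, was still near the 0.87 of all genes in that table.

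Single members of these lists did differ. Of the 12 gap and terminal genes only fkh, a forkhead factor of the embryo's ends, was past 2 at stage 5. It was listed at 0 in both species at stage 2, and was at 54.8 FPKM in D. mojavensis and 0.000126 in D. virilis at stage 5. So low a D. virilis value may also be a failed estimate. The dorsoventral exceptions were tld, a protease that cleaves Sog and so frees Dpp, with 85.0 FPKM in D. virilis and 8.83 in D. mojavensis, and pyr and Ance, with 2.99 and 25.2 FPKM in D. virilis and 14.6 and 101 in D. mojavensis. pyr encodes an FGF ligand and Ance a peptidase. pyr and Ance were no longer past 2 without centring.

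Early zygotic and sex determination genes included members with more mRNA in D. mojavensis at stage 5. sisA, in D. melanogaster an X-linked signal that switches on Sxl, was at 287 FPKM against 65.9 in D. virilis, and emc, an inhibitor of bHLH factors, at 1083 against 212. otu, needed in the female germ line, went the other way, at 24.7 FPKM in D. virilis and 3.97 in D. mojavensis. These were the 3 of 15 sex determination genes past 2, and their share of 20.0% is near the 18.1% of all genes. Of 31 other early zygotic genes 3 (9.68%) were past 2, a lower share than that of all genes, all on the D. mojavensis side: sca at 401 against 85.2 FPKM, nub at 121 against 13.6 and Nrt at 2027 against 389.

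Genes of glycolysis and gluconeogenesis were on balance higher in D. virilis at both stages. At stage 2 none of its 13 genes was past 2, and the median difference was 0.69. At stage 5, 7 of 13 (53.8%) were past 2 beside 18.1% of all genes, 6 of them higher in D. virilis, and the median was 1.78. In addition to Pgk these were Gapdh1 at 546 FPKM in D. virilis and 39.8 in D. mojavensis, PyK at 122 and 14.2, Eno at 107 and 23.5, and Pglym78 at 38.4 and 3.94. All 5 are enzymes of the lower part of glycolysis, and all 5 were at 95.4 FPKM or more in both species at stage 2. The sixth was fbp, at 57.2 and 9.42 FPKM, an enzyme of gluconeogenesis, which runs the opposite way. The single gene past 2 on the D. mojavensis side, Pepck, at 36.3 FPKM against 1.06, is also gluconeogenic. With quantile normalization 5 and 1 were past 2.

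Mitochondrial genes differed in scattered members. Of 70 respiratory chain subunit genes 10 (14.3%) were past 2 at stage 5, all 10 higher in D. mojavensis, although the median difference was -0.28. SdhD, of complex II, was at 91.8 FPKM in D. mojavensis and 3.01 in D. virilis, and ND-B17, of complex I, at 185 and 19.0. ATPsynF was at 719 and 142 FPKM, and it had been past 2 at stage 2 as well, at 229 and 11.8. With quantile normalization 5 genes were past 2, all 5 higher in D. mojavensis.

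Of 72 mitochondrial ribosomal protein genes 11 (15.3%) were past 2 at stage 5, 10 of them higher in D. mojavensis, with a median difference of 0.10. Besides mRpL9 these included mRpS18A, at 62.6 FPKM in D. mojavensis and near 0 in D. virilis, and mRpL34, at 365 and 33.9. mRpL54 was higher in D. virilis, at 81.0 FPKM and 16.5. With quantile normalization 6 were past 2, all higher in D. mojavensis. Both mitochondrial shares, counted over both directions, lay below the 18.1% of all genes. By direction, 620 of all 7424 genes were higher in D. mojavensis by 2 or more at stage 5 and 724 in D. virilis. The mitochondrial genes past 2 were almost all on the D. mojavensis side.

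Genes of protein synthesis and turnover varied by list beside the 18.1% of all genes. None of 23 translation initiation factor genes was past 2 at either stage, and 4 of 78 ribosomal protein genes (5.13%) and 4 of 35 proteasome genes (11.4%) were at stage 5. Of 20 aminoacyl-tRNA synthetase genes 5 (25.0%) were, 2 higher in D. virilis and 3 in D. mojavensis. RpLP1 and RpS20 of the ribosome were at 1680 and 6843 FPKM in D. virilis and at 219 and 1579 in D. mojavensis. RpS14b was at 1257 FPKM in D. virilis and listed at 0 in D. mojavensis at both stages. It has a near-identical copy in D. melanogaster, and reads of such copies can be split between them, so its value is uncertain.

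**Figure D5:**
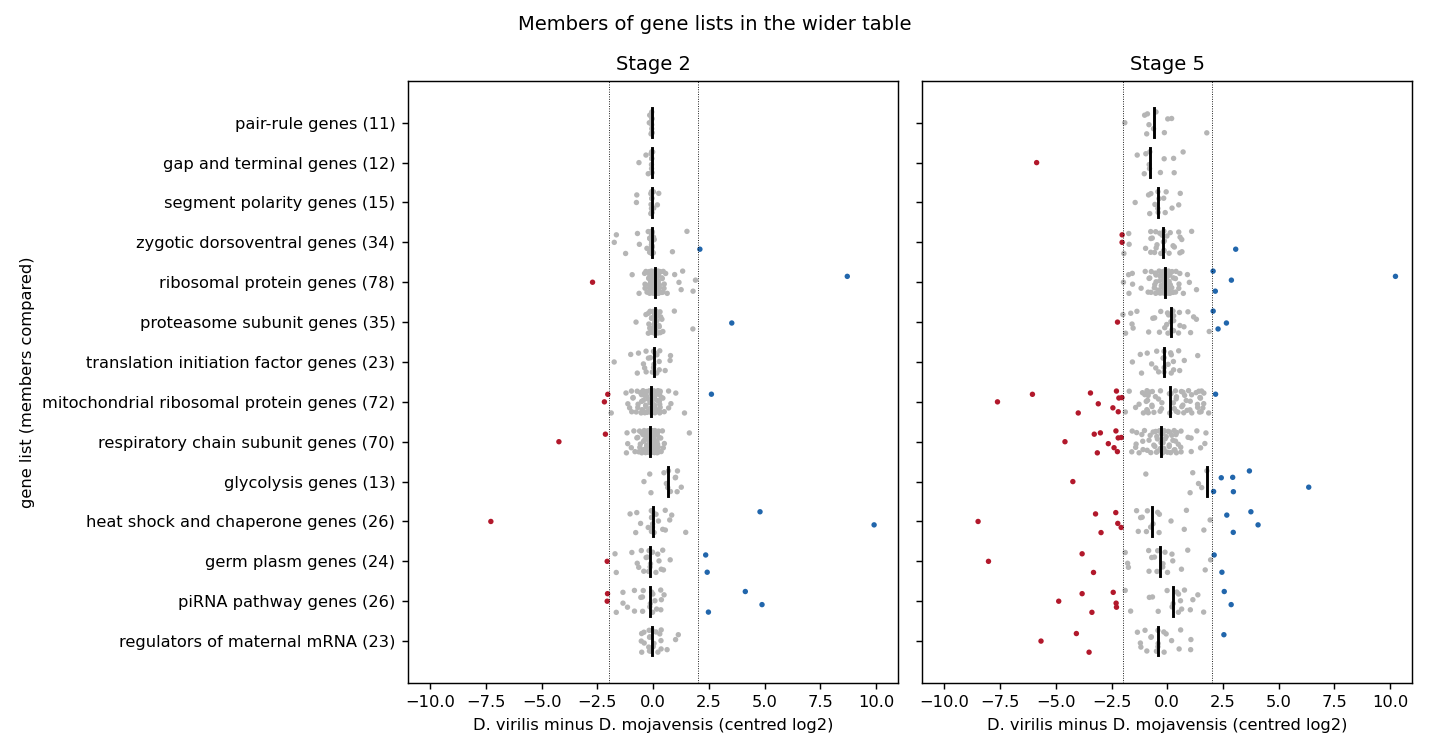
Members of 14 gene lists (number compared in brackets) by their difference D. virilis minus D. mojavensis, centred log2, at stage 2 and stage 5; blue and red points are past 2 and black bars are list medians. Pair-rule and segment polarity genes stay within the dotted lines at both stages, and the glycolysis median moves from 0.69 to 1.78.

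Heat shock and chaperone genes differed in 10 of 26 members (38.5%) at stage 5, beside 18.1% of all genes, 4 higher in D. virilis and 6 in D. mojavensis. Hsp83, the fly Hsp90, went from 1538 to 127 FPKM in D. virilis and from 1007 to 1143 in D. mojavensis. Hsp27 had the same form, from 1215 to 227 FPKM and from 422 to 1713. Hsp23 stayed high in D. virilis, at 959 and 981 FPKM, and was at 32.1 and 147 in D. mojavensis.

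The small heat shock genes at 67B went in opposite directions. Within this pair Hsp67Ba had a high level only in D. virilis. Hsp67Bc, in contrast, was at 151 and 453 FPKM in D. mojavensis and at 0.0174 and 0.317 in D. virilis. These genes are neighbours of related sequence in D. melanogaster, and how each was matched between the species was not tested. Cct5, of the chaperonin that folds actin and tubulin, was at 173 FPKM in D. virilis and 20.5 in D. mojavensis at stage 5.

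Genes of the germ line and of the piRNA pathway, which silences transposons, had members past 2 in both directions. Of 26 piRNA genes 8 (30.8%, beside 18.1% of all genes) were past 2 at stage 5, 2 higher in D. virilis and 6 in D. mojavensis. piwi was at 161 FPKM in D. mojavensis and 11.0 in D. virilis, after 125 and 40.7 at stage 2. spn-E was at 132 and 12.3 FPKM, vret at 132 and 24.8, and squ at 173 and 35.9, while these 3 were within 1 at stage 2. armi and krimp were higher in D. virilis, at 164 and 10.2 FPKM against 20.7 and 0.824.

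At stage 2, fs(1)Yb, known from D. melanogaster for the Yb body of ovarian follicle cells, and its relative SoYb were in the egg of D. virilis and scarce in that of D. mojavensis. fs(1)Yb was at 44.7 and 0.482 FPKM, and SoYb at 18.9 and 0.0833. Among 24 germ plasm genes, 5 (20.8%) were past 2 at stage 5, a share near that of all genes. The largest difference was that of BicC, an RNA-binding repressor of translation. It was at 460 and 478 FPKM at stage 2, and at 3.90 in D. virilis and 1223 in D. mojavensis at stage 5, a difference of -8.02. bam, a germ line differentiation factor, went from 25.7 to 0.776 FPKM in D. virilis and from 3.76 to 15.9 in D. mojavensis.

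Regulators of maternal mRNA were alike in the egg and differed in 4 of 23 members (17.4%) at stage 5, a share near the 18.1% of all genes. None was past 2 at stage 2. Rcd-1, of the CCR4-NOT deadenylase, went from 93.7 to 1.53 FPKM in D. virilis and from 82.0 to 122 in D. mojavensis. wisp, a cytoplasmic polyA polymerase, went from 105 to 7.36 FPKM and from 146 to 135. gnu, a subunit of the PNG kinase complex, was at 5.01 and 64.6 FPKM at stage 5. Ge-1, of the decapping machinery, was higher in D. virilis, at 199 against 32.0 FPKM.

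Glutathione S-transferases had a larger stage change in D. virilis in 4 of 13 genes (30.8%, beside 16.2% of all genes), with a median of 1.50. GstT3 went from 15.5 to 0.196 FPKM in D. mojavensis and from 15.8 to 8.65 in D. virilis, and GstE11 from 63.4 to 22.1 and from 51.0 to 76.8. GstE4 reached 13.7 FPKM at stage 5 in D. virilis only. GstT4 went from 11.1 to 0.632 FPKM in D. mojavensis and was below 1 FPKM at both stages in D. virilis.

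Markers of later or other tissues were mostly low. Of the muscle, neuron, gut, testis, eggshell and yolk lists, 2 to 5 genes each reached 1 FPKM in any column. The exceptions in level were TpnC41C, a muscle troponin C, at 30.3 and 143 FPKM in D. mojavensis and 0.0312 and 5.47 in D. virilis, and Pxt, an ovarian peroxidase. Pxt was at 258 and 323 FPKM at stage 2 and at 145 in D. virilis and 5.04 in D. mojavensis at stage 5. Of 28 odorant and taste genes 9 (32.1%, beside 18.1% of all genes) were past 2 at stage 5, 2 higher in D. virilis and 7 in D. mojavensis, among the latter Or22c at 30.1, Obp59a at 16.7 and Or1a at 15.9 FPKM, with 0.713 FPKM or less in D. virilis. Their part in any difference above was not tested.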

How the data were processed

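Cutadapt, TopHat2, Cufflinks, Cuffnorm and Cuffdiff are named in the submitters' processing notes, and neither their versions nor a genome build is given in the sources used here. The authors deposited 1 value per gene, species and stage, and its unit was taken as FPKM because of these tools and of the size of the values. FPKM divides by the length of each species' own gene model, so a model of the wrong length shifts a species difference. Of the main table's value columns 27 were used and 1 was not, and of the wider table's 4 were used and 24 were not. The values of the wider table stand 1 place to the left of their names, and all 3764 main genes had the same 4 values in both tables.

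Values were analysed as log2(FPKM + 1) (pseudocount 1) with pandas 2.3.3, for genes at 1 FPKM or more in any of the 4 columns, each column centred on its median. The calculation of the difference was checked on simulated columns with known changes, which is no test of the 2 species. No test of the pair was possible with 1 combined value per group. Named per comparison and direction were the 10 largest differences of at least 2 among genes above 0 and at 10 FPKM or more in the higher column, the 5 largest listed at 0 in the other species, the 5 leading the overlap, and list members past 2. The members and the 42 gene lists were chosen with earlier results of these data known. Of the symbols, 3106 of 3764 in the main table are current FlyBase symbols. Alternatives covered the pseudocount, the filter, the scaling, values of 0 and the wider table.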

Additional observations from a re-analysis of the deposited data

Results flagged for a closer look

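Among the named genes, 16 changed in opposite directions between the stages, by 1 or more in each species, and are given with the D. virilis change minus the D. mojavensis change on the centred log2 scale. With 1 combined value per species and stage, the difference was not tested for any of them. The mixing with D. melanogaster material differs between the stages in D. virilis only and cannot be told apart from the species here. Lower at stage 5 in D. virilis and higher in D. mojavensis were papi (-7.36), PEK (-6.94), mRpL9 (-6.41), PHGPx (-6.38), CG9399 (-6.04), cN-IIIB (-5.88), Hsp67Ba (-5.85), tub (-3.77) and CrebA (-3.13). Higher at stage 5 in D. virilis and lower in D. mojavensis were CG18190 (6.04), prel (5.94), CG14997 (5.82), AnxB11 (5.57), CG32147 (4.77), rtv (4.64) and Ppt2 (4.02). In D. mojavensis papi, PEK, mRpL9, PHGPx and CG9399 were at 46.5 to 235 FPKM at stage 5, and in D. virilis at 3.86 or less. The D. virilis value of mRpL9 at stage 5, 4.86e-06 FPKM, may be a failed estimate, as may the 0 of CG32147 at stage 2. Among all 3540 genes 107 changed by 1 or more in opposite directions, so the named genes are the far end of a larger group.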

How the results depend on the processing

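No paired analysis was possible because each column combines the embryos of a group, and for the same reason no replicate could be left out. Counts moved by over 1.5 times with the pseudocount and in the wider table. With a pseudocount of 0.1, which widens differences of low genes, 173 and 159 genes were higher in D. virilis and D. mojavensis at stage 2, 398 had the larger stage change in D. virilis, and 88 were higher in D. virilis at both stages. With a pseudocount of 5 the counts were 39 and 42 at stage 2, 147 and 145 at stage 5, 141 and 120 for the stage change, and 15 and 18 at both stages. In the wider table, with 7424 in place of 3540 genes, they were 287 and 271 at stage 2, 724 and 620 at stage 5, 650 and 553 for the stage change, and 143 and 137 at both stages. Genes at 1 FPKM or more in 1 species only were there 336 and 300 at stage 2 and 798 and 474 at stage 5. Leaving out genes at or below 1e-06 FPKM, chosen after seeing the data, lowered the D. mojavensis count at both stages to 28. The counts at 1 FPKM were not recomputed under other pseudocounts, filters, centring or quantile normalization, which do not enter them. All other counts over the whole table stayed within 1.5 times the main ones. Counts within gene lists were recomputed under the 3 scalings only, and some moved further, the mitochondrial and dorsoventral lists among them. Bringing the columns to the same total shifted the median difference of all genes by 0.12 at stage 5 and 0.17 in the stage change. Of the 73 named differences none changed direction under any alternative that kept the gene, and 8 values fell below 2, of which 7 were with a pseudocount of 5. These differences were picked as the largest in the same columns, so a kept direction is no separate support for them. Only 57 of the 73 remained with genes at 0 in any column left out. With genes at or below 1e-06 FPKM in any column left out, 48 remained.

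The depth is unknown, so a low value cannot be separated from an undetected one. At stage 5 and in the stage change the mixing with D. melanogaster material goes with the species. FPKM rests on each species' gene model and ortholog match, neither of which was tested.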
